A study of Lytechinus variegatus with 64 samples.

Results

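The adult testis of the sea urchin Lytechinus variegatus was compared with the adult ovary, using 8 of the 64 libraries of a tissue atlas. The 8 libraries were chosen by their labels, 4 of testis and 4 of ovary. The 4 libraries of unfertilized eggs served as a second female reference, so that differences shared with eggs could be separated from those seen only against the ovary. All 3 groups were labelled wild type and came from adult animals of a commercial supplier, dissected for tissues or spawned for eggs. No age was given for the adults. Single libraries of a stage 1 ovary and of a testis and an ovary from juveniles at 4.5 months post fertilization, together with 3 libraries of juvenile gonads of indeterminate sex at the same age, were used only for description. PolyA RNA was sequenced from every sample, by one provider for adult tissues and eggs and by another for juvenile gonads. Whether the 4 replicates of a group were taken from different animals is not in the labels, and the p-values therefore speak only of the spread among libraries, which could be technical.

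In sea urchins the testis and the ovary are both lobed sacs in which germ cells develop among nutritive phagocytes, somatic cells that store nutrients and release them as gametes form. The testis fills with sperm, small cells with condensed chromatin and a motile tail, while the ovary fills with oocytes and mature eggs that carry maternal RNA for the embryo. Eggs are shed through the gonoduct and are collected without most of the somatic tissue of the gonad. A comparison of testis with ovary therefore sets whole organs side by side, and a comparison of testis with eggs sets an organ against a cell type.

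The adult ovary libraries stood apart from testis and egg libraries and from the stage 1 ovary. Testis libraries held 17167 ± 1358 genes at a CPM (library-size scaled count) of 1 or more, against 12422 ± 616 in ovary libraries (SD, n = 4 each). Egg libraries held 15110 ± 388 (n = 4). For these gene numbers alone, CPM were scaled by library totals without TMM factors. The factors were 1.29 to 1.73 in testis and 0.812 to 0.929 in ovary, so TMM scaling lowers testis CPM and raises ovary CPM. The gene numbers were not computed on that scale. Totals were 21988079 to 26822145 counts in testis, 22680012 to 56763398 in ovary and 29833366 to 51211276 in eggs, so the smaller gene number of the ovary did not go with a smaller depth. Across 25887 genes, Spearman's rho was 0.713 to 0.769 between testis and ovary libraries, 0.824 to 0.894 between testis and egg libraries, and 0.757 to 0.854 between egg and ovary libraries. Within groups it was at least 0.891 in testis, 0.903 in ovary and 0.900 in eggs. The single stage 1 ovary library reached 0.839 to 0.884 with testis libraries and 0.890 to 0.915 with egg libraries, but only 0.758 to 0.801 with the other ovary libraries. Genes are not independent replicates and these coefficients describe the libraries. Because of this, the calls against the ovary are given with those against eggs in its place. The files do not pair locus identifiers with product names, so the tissue labels could not be set against defining marker genes, and genes are named by identifier with no role. In bulk tissue, fewer cells of a type and less RNA per cell cannot be told apart.

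Testis and ovary differed at many genes in each direction. Of 17715 genes tested, 5730 (32.3%) were higher and 4166 (23.5%) lower in testis than in ovary, by edgeR's quasi-likelihood test. A call required a Benjamini-Hochberg adjusted p under 0.05 together with a difference of 2-fold or more. The differences were steeper on the testis side. At least 4-fold differences were called for 5053 genes higher and 2871 lower, 16-fold differences for 2935 and 720, and 64-fold differences for 1290 and 207. Of the 9896 genes called, 9026 showed no overlap between the 4 testis and the 4 ovary libraries. Among all 17715 genes tested, testis lay wholly above ovary for 5697 and wholly below it for 4092. The calls were made on these same libraries, so the separation only describes the genes called. Over all tested genes the log2 fold change had a median of 0.53, and the excess of higher genes moved with the scaling. With library totals alone in place of TMM scaling, the median was 1.21 and 71.6% of the calls were higher in testis, against 57.9% with TMM.

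Some genes well covered in testis had no count in the ovary libraries, while the converse was not seen. A mean of at least 10 CPM in testis with 0 counts in all 4 ovary libraries was found for 96 genes. Only 2 of the 96 also had 0 counts in all egg libraries. No gene reached 10 CPM in ovary with 0 counts in all testis libraries. Zero counts in every ovary library were found for 428 of the tested genes, and zero counts in every testis library for 4.

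With eggs as the reference the testis differed at far fewer genes. Of 19055 genes, 517 (2.71%) were higher and 784 (4.11%) lower in testis than in eggs, with a median log2 fold change of 0.01. This balance depended on the scaling. With library totals alone 3311 genes were higher and 440 lower in testis than in eggs, with a median of 0.88. Eggs in turn differed widely from the ovary, with 4635 genes (27.5%) higher and 3759 (22.3%) lower in eggs among 16877 tested. The comparisons with ovary and with eggs share the testis libraries, so they are not independent of each other. The standard errors were of like size, with a median of 0.662 for testis against ovary and 0.559 for testis against eggs on the log2 scale.

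Each gene called between testis and ovary was then placed by what it did against eggs. A change was taken as shared with eggs if the gene was called in the same direction in testis against eggs. It was taken as seen only against the ovary if it was not called in testis against eggs and if eggs against ovary was itself called in the direction of the testis. This test of eggs against ovary is the test of the difference between the comparisons, since the testis term cancels. Of the genes higher in testis, 451 were shared with eggs, 3495 were seen only against the ovary, 142 were higher than ovary but lower than eggs, and 1642 met neither definition. Of the genes lower in testis, 418 were shared with eggs, 3039 were seen only against the ovary, 0 were higher than eggs, and 709 met neither definition. For the empty class, 11 genes lower than ovary were higher than eggs at an unadjusted p under 0.05, 5 of them by at least 2-fold, and the DESeq2 Wald test placed 2 genes in it. Shared changes thus made up 7.87% of the higher genes and 418 of the 4166 lower genes, and changes seen only against the ovary 61.0% and 72.9%. The shared number on the higher side was 2275 of 7218 with library totals alone and 1270 of 8768 with the DESeq2 Wald test.

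**Figure D1:**
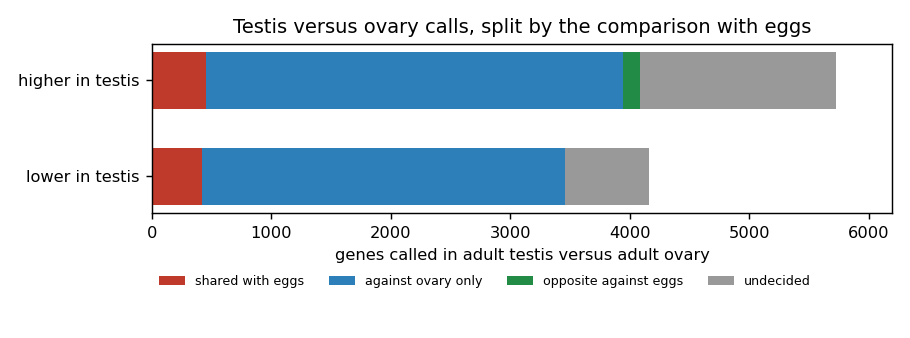
Numbers of genes called higher (upper bar) and lower (lower bar) in adult testis than in adult ovary, split by colour according to the comparison with eggs. Changes seen only against the ovary take the longest segment of both bars, 3495 of 5730 and 3039 of 4166 genes.

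Not being called against eggs does not show equality with eggs. Among the 3495 genes higher only against the ovary, the 95% interval of the log2 fold change of testis over eggs lay within 2 on either side of 0 for 2250 and within 1 for 329. Among the 3039 genes lower only against the ovary the numbers were 2167 and 404, and 15 were not tested against eggs. When a difference from eggs of less than 2-fold was required as well, 2701 and 2325 genes remained.

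**Figure D2:**
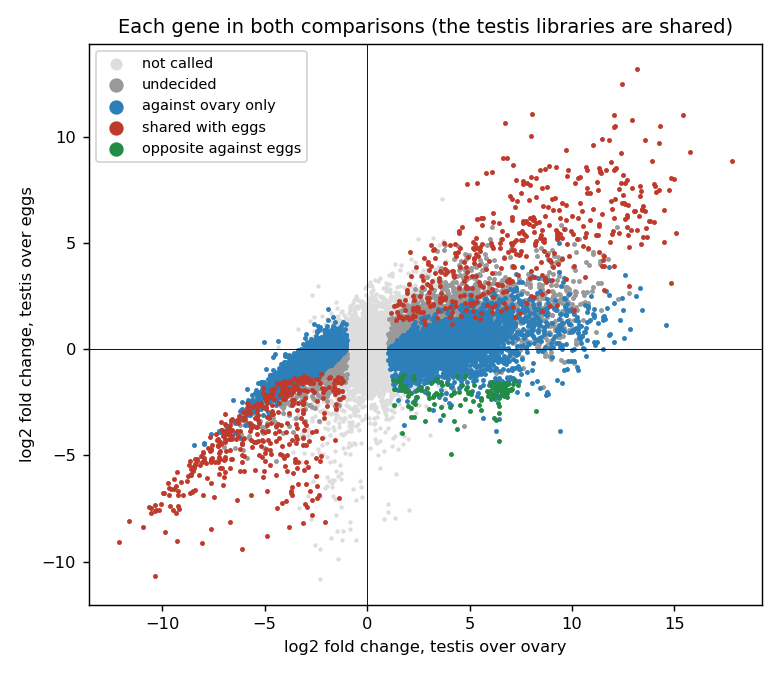
Log2 fold change of testis over ovary (horizontal) against that of testis over eggs (vertical) for each gene tested in both, coloured by class. The genes seen only against the ovary spread around the horizontal axis, at vertical medians of 0.17 for the higher and -0.43 for the lower ones. The shared genes have the same sign on both axes. The class definitions require this sign for shared genes and no call against eggs for the genes seen only against the ovary. The same testis libraries enter both axes.

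The genes higher in testis than in both female references had the steepest differences. Over the 451 genes the median log2 fold change was 7.40 over ovary and 4.76 over eggs, beside 0.53 and 0.00 over all tested genes, and the median level was 32.4 CPM in testis, 0.134 CPM in ovary and 0.94 CPM in eggs. These values come from the contrasts that chose the class and only describe it. In 103 of the 451 no ovary library had a count. The class took 11.1%, 3.21%, 1.74% and 3.91% of the counts in testis replicates 1 to 4, against 0.132% to 0.172% in the ovary libraries and 0.229% to 0.306% in the egg libraries. Testis replicate 1 lay above the other testis libraries, and all testis libraries lay above all ovary and egg libraries. In the 41 libraries of the 11 other adult sample types with replicates the class took a median of 0.944%, with a range of 0.490% to 5.75%. Coelomic fluid and spines, with single libraries, are not part of these or of any later values for other adult tissues. Testis had the highest mean of the 14 adult sample types for 343 of the 451 genes, or 76.1%, beside 10.2% of all tested genes.

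LOC121410602 drew the most reads of this class in testis, without correction for gene length. It had 7439, 1547, 259.6 and 1217 CPM in testis replicates 1 to 4, against 0, 0, 4.24 and 0.0868 CPM in ovary and 12.6, 3.28, 6.93 and 5.39 CPM in eggs. The testis libraries spanned a wide range but did not overlap with either reference. Its log2 fold change was 11.33 ± 2.21 over ovary (SE, edgeR adjusted p = 0.00181) and 8.54 ± 1.15 over eggs (adjusted p = 0.00519), while eggs and ovary differed by 2.68 ± 1.57 (adjusted p = 0.174). The value over ovary ranged between 9.97 and 15.97 when single libraries were left out, with the highest value without ovary replicate 3. Of the other adult tissues the radial canal had the highest mean, at 85.4 CPM.

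LOC121406239, a protein-coding gene, and LOC121420745, annotated as a long non-coding RNA, had no count in any ovary or egg library. LOC121406239 had 95.1, 16.6, 2.22 and 21.5 CPM in the 4 testis libraries. Against 3 counts in the shallowest library of each reference it was at least 229-fold higher in testis than in ovary (edgeR adjusted p = 0.00103) and at least 261-fold higher than in eggs (adjusted p = 0.00899). Without testis replicate 1 these bounds were 90.9-fold and 104-fold. LOC121420745 had 65.8, 5.99, 1.01 and 11 CPM in testis, which was at least 142-fold higher than in ovary (edgeR adjusted p = 0.00211) and at least 162-fold higher than in eggs (adjusted p = 0.0144). Without testis replicate 1 its bounds were 40.5-fold and 46.2-fold, so that 1 library set much of the size for both genes. These were the 2 genes that reached 10 CPM in testis with no count in either reference. Their highest means in the 11 other adult tissues were 2.25 CPM and 0.534 CPM, both in the radial canal.

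The genes lower in testis than in both references had, by their medians, the highest level in the ovary and a lower one in eggs. Over the 418 genes the median log2 fold change was -4.98 against ovary and -4.01 against eggs, with median levels of 2.03 CPM in testis, 94.7 CPM in ovary and 36.5 CPM in eggs. They took 0.636% to 0.852% of counts in testis, 15.3% to 18.5% in ovary and 3.27% to 6.19% in eggs, with no overlap between any of the groups. Eggs were themselves called lower than ovary at 229 of the 418 genes and higher at 33, beside 22.3% and 27.5% of all genes tested between them. Among the 14 sample types the highest mean was in ovary for 293 genes (70.1%) and in eggs for 74 (17.7%). Over all tested genes these shares were 28.2% and 10.1%. The class was chosen for testis below ovary and eggs in these same libraries, so these values only describe it. The 41 libraries of other tissues held 0.567% to 3.02%, a range that contains the testis values.

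LOC121423180 led the class in both fold change and reads. It had 1.83, 2.37, 0.864 and 4.08 CPM in testis, against 9433, 12915, 11434 and 8781 CPM in ovary and 1279, 183, 3055 and 299.5 CPM in eggs. Every testis library lay below every egg library, and every egg library below every ovary library. Against eggs its log2 fold change was -9.08 ± 1.16 (SE, edgeR adjusted p = 0.0046), and eggs lay below ovary by -2.98 ± 0.92 (adjusted p = 0.0209). LOC121407243 had 1.01, 1.41, 0.288 and 0.840 CPM in testis, against 669, 656, 1393 and 751 CPM in ovary and 200.5, 178, 690.2 and 291 CPM in eggs. It was lower in testis by a log2 fold change of -9.84 ± 0.67 against ovary (SE, edgeR adjusted p = 1.80e-05) and -8.60 ± 0.78 against eggs (adjusted p = 0.0017). Eggs and ovary overlapped for this gene, and the test between them did not pass (-1.25 ± 0.59, adjusted p = 0.0982). Among the 11 other replicated adult tissues its highest mean was 9.15 CPM, in the radial canal.

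**Figure D3:**
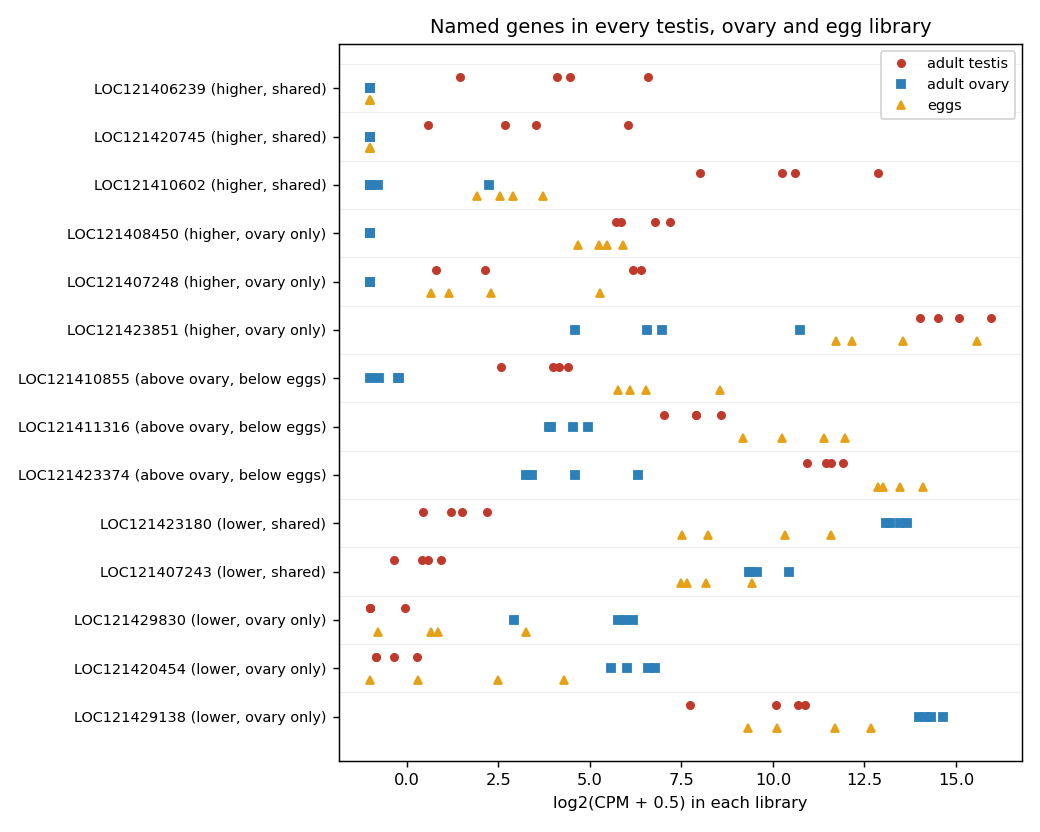
Level of each named gene, as log2 of CPM plus 0.5, in every adult testis, ovary and egg library, with the class of the gene in brackets. Testis points lie apart from ovary points for all 14 genes, as the choice of the named genes required. Egg points lie near the testis or between the groups for the genes seen only against the ovary.

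The 3495 genes higher in testis only against the ovary carried a large part of testis RNA. They took 31.0%, 42.3%, 45.9% and 34.1% of the counts in testis replicates 1 to 4, against 1.20%, 1.42%, 1.11% and 2.01% in ovary and 22.2%, 28.3%, 17.2% and 21.1% in eggs. In the 41 libraries of other adult tissues they took a median of 35.9%, with a range of 26.1% to 52.0%, so that testis lay inside the range of other tissues, all ovary libraries lay far under it, and 3 of the 4 egg libraries lay below it as well. The stage 1 ovary library, which had no part in the choice of the class, held 35.9%. The juvenile testis held 31.0% and the juvenile ovary 27.2%. Per gene, the median log2 fold change was 3.84 over ovary and 0.17 over eggs. Relative to the median of the other adult tissues on the log2 scale, testis lay at a median of 0.08 and ovary at -2.83. The adult ovary had the lowest mean of the 14 adult sample types for 3136 of the genes, or 89.7%, beside 34.5% of all tested genes. The choice of the class required a low ovary, and this share is given as a description.

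LOC121423851 drew the most reads of this class in testis. It had 23449, 34803, 64002 and 16543 CPM in testis, against 93.7, 1697, 23.8 and 124 CPM in ovary and 12059.8, 48549, 4549 and 3378 CPM in eggs. Testis and egg libraries overlapped, and ovary replicate 2 lay above the other ovary libraries but below all testis and egg libraries. The log2 fold change was 6.25 ± 1.35 over ovary (SE, edgeR adjusted p = 0.0032), and 8.66 without ovary replicate 2. Over eggs it was 0.99, with a 95% interval of -0.88 to 2.87 (adjusted p = 0.535), and 2.39 without egg replicate 2. Its level was 2633 CPM in the stage 1 ovary and 29602 CPM in the juvenile ovary.

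LOC121408450 and LOC121407248 had the largest fold changes of the class and no count in any ovary library. LOC121408450 had 52.5, 145.0, 110.1 and 57.2 CPM in testis and 59.0, 44.2, 37.3 and 25.3 CPM in eggs. It was at least 617-fold higher in testis than in ovary (edgeR adjusted p = 4.38e-05), and eggs were at least 280.5-fold higher than ovary (adjusted p = 0.000149). The log2 fold change of testis over eggs was 1.13, with a 95% interval of 0.17 to 2.10 (adjusted p = 0.152). The gene was present in all 11 other adult tissues, at means of 1.07 to 139 CPM, at 13.9 CPM in the stage 1 ovary and at 44.1 CPM in the juvenile ovary. LOC121407248 varied more, with 71.5, 83.3, 3.89 and 1.24 CPM in testis and 38.2, 4.41, 1.08 and 1.73 CPM in eggs. It was at least 271-fold higher in testis than in ovary (edgeR adjusted p = 0.0023), and 173-fold without testis replicate 2. Both bounds use the testis mean, so replicates 1 and 2 set most of the first and replicate 1 most of the second. Testis and eggs overlapped, and the interval of their log2 difference ran from -1.13 to 4.80 (adjusted p = 0.461).

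The 3039 genes lower in testis only against the ovary made up most of the ovary's counts. They took 15.4%, 12.8%, 11.7% and 13.6% in testis replicates 1 to 4, against 59.9%, 60.8%, 59.4% and 57.5% in ovary and 13.1%, 6.77%, 16.5% and 7.45% in eggs. The 41 libraries of other tissues held a median of 12.1%, from 3.01% to 16.6%, which contains all testis and egg libraries. The stage 1 ovary held 7.5%, and of the juvenile libraries the testis held 14.9% and the ovary 10.8%. The median log2 fold change was -2.50 against ovary and -0.43 against eggs. The ovary had the highest mean of the 14 sample types for 2744 of the genes, or 90.3%, beside 28.2% of all tested genes. The choice of the class required a high ovary, and this share only describes it. Differences were smaller than on the higher side, and the median level in testis was 14.2 CPM, against 88.9 CPM in ovary and 19.1 CPM in eggs.

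LOC121429138 drew the most reads of this class in ovary. It had 1878, 1652, 1088 and 214 CPM in testis, against 18291, 25440.2, 20265 and 16162 CPM in ovary and 3319, 1106, 6579 and 642 CPM in eggs. Testis and egg libraries overlapped and both lay below all ovary libraries. The log2 fold change was -3.96 ± 0.62 against ovary (SE, edgeR adjusted p = 0.00056), -1.30 against eggs with a 95% interval of -3.09 to 0.50 (adjusted p = 0.383), and -2.63 ± 0.84 for eggs against ovary (adjusted p = 0.0236). The stage 1 ovary had 752 CPM, within the range of 352 to 1292 CPM of the means of other tissues. The juvenile testis had 779 CPM and the juvenile ovary 2619.8 CPM.

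LOC121420454 and LOC121429830 had the largest negative fold changes of the class. LOC121420454 had 0.0611, 0.0641, 0.288 and 0.716 CPM in testis, against 47.1, 95.3, 64.4 and 110.2 CPM in ovary and 5.12, 0, 19.1 and 0.742 CPM in eggs. Its log2 fold change was -7.97 ± 0.87 against ovary (SE, edgeR adjusted p = 8.56e-05), and -4.48 against eggs with a 95% interval of -7.96 to -1.01 (adjusted p = 0.118). The size of the difference from eggs was therefore poorly fixed, and it ranged from -5.48 to -2.77 with single libraries left out, smallest without egg replicate 3. It was called without egg replicate 2 (-4.91) and with the DESeq2 Wald test (-4.48). LOC121429830 had 0, 0, 0 and 0.469 CPM in testis, against 71.8, 54.1, 7.19 and 61.7 CPM in ovary and 8.99, 0.0864, 1.30 and 1.09 CPM in eggs. Its log2 fold change against ovary was -8.46 ± 1.49 (SE, edgeR adjusted p = 0.00106). Testis replicate 4 was the only testis library with counts, and without it the gene was at least 507-fold lower in testis than in ovary, against 3 counts in the shallowest of the other 3 testis libraries. Against eggs it was -4.52, with a 95% interval of -8.33 to -0.72 (adjusted p = 0.148), and the DESeq2 Wald test called it.

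A small class of 142 genes was higher in testis than in ovary but lower than in eggs, and it took a large part of testis and egg reads for its size. Its number rested on the settings, with 33 genes without testis replicate 2, 41 with the replicate block, 46 with library totals alone, 25 with glmTreat and 256 with the DESeq2 Wald test. The median level was 348 CPM in testis, 11.5 CPM in ovary and 1484 CPM in eggs. It took 8.55%, 13.7%, 14.4% and 17.5% of counts in testis, against 0.128%, 0.179%, 0.132% and 0.378% in ovary and 36.7%, 28.3%, 28.6% and 25.5% in eggs. No library of one group overlapped with another. The class was chosen for this order in these same libraries, so it is only a description. The stage 1 ovary held 25.2%, the juvenile ovary 20.9%, the juvenile testis 9.32% and other adult tissues a median of 12.3%, with a range of 7.91% to 22.0%. Eggs had the highest mean of all 14 types for 94 of the 142 genes (66.2%), beside 10.1% of all tested genes. The adult ovary had the lowest mean for 133 (93.7%), beside 34.5% of all tested genes. Eggs above testis and ovary below it were required by the choice of the class.

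LOC121423374, which drew the most testis reads of them, had 1945, 3865, 3097 and 2818 CPM in testis, against 10.2, 23.7, 9.06 and 78.7 CPM in ovary and 17505, 8249, 11416 and 7456 CPM in eggs. The groups did not overlap. Its log2 fold change was 6.75 ± 0.79 over ovary (SE, edgeR adjusted p = 0.000119) and -1.93 ± 0.46 against eggs (adjusted p = 0.0318). The call against eggs was lost when any one of 6 libraries was left out, with log2 fold changes of -2.11 to -1.66 over all single libraries left out, and also with library totals alone (-1.10), with no filter (-1.95), in 1 fit over 12 libraries (-1.93) and with the replicate block (-1.88). The stage 1 ovary had 10964 CPM and the juvenile ovary 4885 CPM.

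LOC121411316 had 238, 237, 385 and 129.5 CPM in testis, against 14.9, 22.9, 14.3 and 30.2 CPM in ovary and 579, 2695, 1209 and 4034 CPM in eggs. Its log2 fold change was 3.70 ± 0.43 over ovary (SE, edgeR adjusted p = 0.000118) and -3.09 ± 0.64 against eggs (adjusted p = 0.0178). The order ovary, testis, eggs held in every library. The call against eggs was lost without testis replicate 2 (-3.07) and with the replicate block (-2.82). LOC121410855 had 5.41, 17.4, 15.6 and 20.9 CPM in testis, against 0, 0.0950, 0.345 and 0.369 CPM in ovary and 92.8, 68.4, 374 and 54.2 CPM in eggs. It was higher in testis than in ovary by 6.29 ± 1.03 (SE, edgeR adjusted p = 0.00071), and lower than in eggs by a log2 fold change of -3.36 ± 0.72 (adjusted p = 0.0215). Without testis replicate 2 the call against eggs was lost (-3.45). Without egg replicate 3 it was -2.28.

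**Figure D4:**
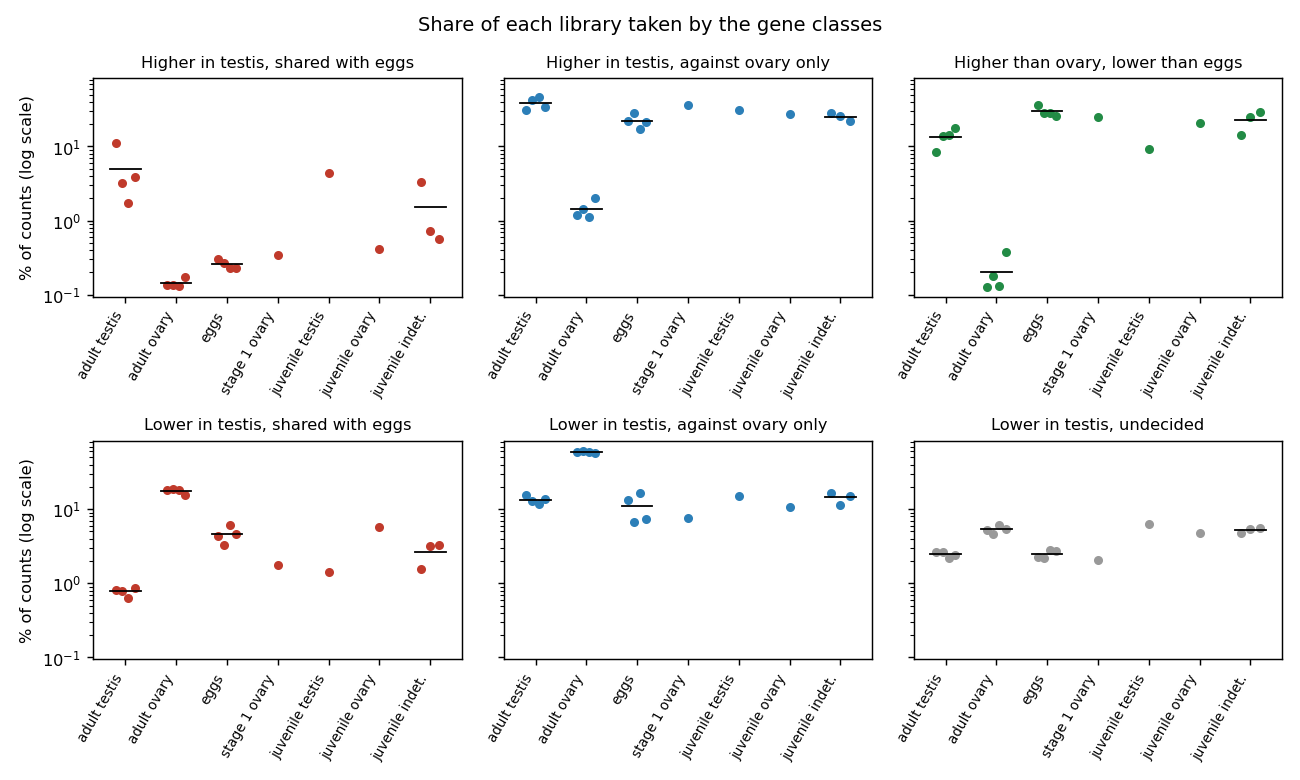
Percentage of each library's counts, on a log scale, taken by 6 of the gene classes in adult testis, adult ovary, eggs and the juvenile and stage 1 gonads, with a point for each library and a line at the mean where a group has more than 1 library. In the panels of genes seen only against the ovary the 4 adult ovary libraries lie apart from all other groups, the stage 1 ovary included.

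The remaining 1642 higher and 709 lower genes could not be placed. The higher ones had few reads, with median levels of 3.91 CPM in testis, 0.186 CPM in ovary and 1.55 CPM in eggs, and 771 of them were not tested in eggs against ovary because too few counts passed the filter. Their median log2 fold change was 4.07 over ovary and 1.26 over eggs. The lower ones had medians of -1.91 against ovary and -0.86 against eggs. Together they made up 28.7% of the higher and 17.0% of the lower calls.

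The juvenile gonads gave levels from libraries that had no part in the choice of any class. Only 1 library of each sex was labelled, so there is no test, and age and sequencing provider differ from the adult libraries together. For the whole set of tested genes, juvenile testis over juvenile ovary had a median log2 ratio of -0.05, and 20.3% of genes were higher and 23.0% lower in the juvenile testis by 2-fold or more, with 0.5 CPM added. Genes higher in adult testis than in both references had a median of 2.46, with 349 of 451 (77.4%) at least 2-fold higher. Genes lower than both had a median of -2.40, with 342 of 418 (81.8%) at least 2-fold lower.

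Genes seen only against the adult ovary were close to the background in the juvenile pair. Those higher in adult testis had a median of -0.11, with 20.3% higher and 25.3% lower in the juvenile testis by 2-fold or more. Those lower in adult testis had a median of 0.04, with 19.1% higher and 16.6% lower. The class between ovary and eggs went the way of the eggs, with a median of -1.68 and 130 of 142 genes (91.5%) at least 2-fold lower in the juvenile testis than in the juvenile ovary. The unplaced genes lay between, with medians of 0.30 for the higher and -0.47 for the lower ones.

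The 5 named genes shared with eggs differed widely in the juvenile pair. LOC121410602 had 2880.1 CPM in the juvenile testis and 13.8 CPM in the juvenile ovary, LOC121406239 had 61.8 and 0.131 CPM, and LOC121420745 had 33.6 and 0.0656 CPM. LOC121423180 had 12 CPM in the juvenile testis and 419 CPM in the juvenile ovary, and LOC121407243 had 7.73 and 317 CPM. All 5 thus had the adult direction. Of the 6 named genes seen only against the ovary, LOC121429138 had a log2 ratio of -1.75, in the adult direction, LOC121407248 had -1.89, against it, and the other 4 lay between -0.41 and 0.91. In the 3 juvenile gonads of indeterminate sex LOC121410602 had 3052, 143 and 14.5 CPM, a range as wide as that between the sexed libraries.

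**Figure D5:**
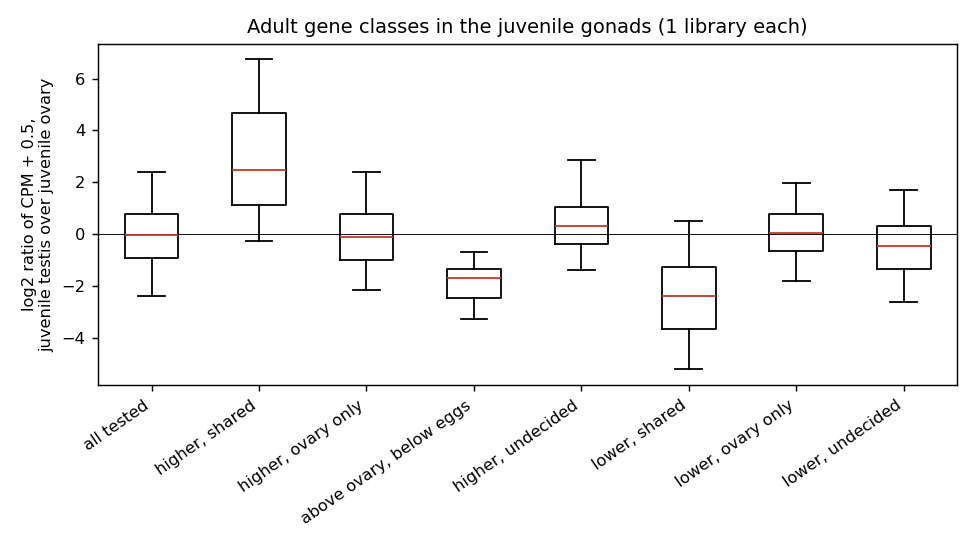
Log2 ratio of CPM plus 0.5 in the juvenile testis over the juvenile ovary, 1 library each, for all genes tested and for each class of the adult comparison (box: quartiles with the median). The boxes of genes shared with eggs lie above and below 0 in the adult direction, at medians of 2.46 and -2.40, while those of genes seen only against the ovary are centred near 0.

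Gene type and position were described for the classes without a test. By the RefSeq gene table of assembly Lvar_3.0, 93.6% of tested genes were protein coding and 4.89% long non-coding. Long non-coding genes made up 6.21% of the genes higher than both references, 3.55% of those higher only against the ovary, 2.11% of those between ovary and eggs and 10.5% of the unplaced higher genes. On the lower side they made up 6.22% of the shared genes and 3.42% of those seen only against the ovary. Of the classes described here the unplaced higher genes thus had the largest share of long non-coding genes.

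The share of genes with a direct neighbour of the same class is given as a description. A gene has up to 2 neighbours, so this share is not on the scale of the share of a class among all genes. Among genes higher than both references, 62 of 451 (13.7%) had such a neighbour, and the class made up 1.75% of the 25813 genes with a known place. Among genes lower than both it was 37 of 418 (8.85%, class share 1.62%). For genes seen only against the ovary it was 37.4% of the higher (class share 13.5%) and 36.7% of the lower genes (class share 11.8%). In the class between ovary and eggs it was 2 of 142 (1.41%, class share 0.55%). Neighbours can be near-identical copies or overlapping genes between which the counting divided reads, and this was not tested.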

How the data were processed

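PolyA RNA libraries were compared as raw counts of reads per gene, which the authors deposited as 1 table. The submitters' processing notes name STAR, featureCounts and DESeq2, without versions. The genome build and strand setting were not given in the sources used here. Of 25890 lines, 3 with joined or displaced fields were left out, and 25887 genes were used. Groups followed the labels.

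Testis against ovary, testis against eggs and eggs against ovary were each fitted on the counts of those libraries alone with edgeR 4.0.16 (glmQLFit, glmQLFTest, TMM, filterByExpr; limma 3.58.1, R 4.3.3). A call needed an adjusted p under 0.05 (Benjamini-Hochberg, over all genes tested) and a log2 fold change of 1 or more in size. CPM were TMM-scaled over all 64 libraries, except for the numbers of genes at 1 CPM or more, which used library totals alone. Shares are of a library's total. CPM have no length correction, so levels were not compared between genes. Where a reference had no count, the fold is a bound against 3 counts in its shallowest library. Such bounds cover counting error only. The intervals given for log2 fold changes are not of this kind, since they come from the edgeR fits and include the spread among libraries.

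In each class, the genes named reached 10 CPM in the higher group without overlap of testis and ovary libraries (for shared genes also of testis and egg libraries). They were the 2 with the largest fold change (in the shared and in-between classes, the smaller of the folds against ovary and eggs) and the 1 with the highest mean. Gene lists and cell type markers matched 0 genes, since identifiers are not paired with product names. Members, lists and tests were chosen with earlier results of these data known. Alternatives were other scalings, the DESeq2 1.42.0 Wald test, no filter, 1 fit over 12 libraries, a replicate block, glmTreat and each library left out. For glmTreat only gene numbers were examined, not the named genes.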

Additional observations from a re-analysis of the deposited data

Results flagged for a closer look

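Among 63 groups of 4 libraries examined, 10 had 1 library whose gap to the nearest of the others was above Dixon's 95% critical value for 4 samples, as a part of the group's range. Chance gives about 1 in 20 groups where groups are independent and values normally distributed. The groups here share libraries and hold CPM or percentages without logs, so this rate is only a rough guide. In testis, LOC121420745 was set apart by replicate 1, at 65.8 CPM, and LOC121429830 by replicate 4, at 0.469 CPM. In ovary, LOC121410602 was set apart by replicate 3, at 4.24 CPM, LOC121423851 by replicate 2, at 1697 CPM, and LOC121407243 by replicate 3, at 1393 CPM. In eggs, LOC121407248 and LOC121429830 were set apart by replicate 1, at 38.2 and 8.99 CPM, and LOC121410855 by replicate 3, at 374 CPM. Of the class shares, ovary replicate 4 was set apart with 0.172% for the genes higher in testis than in both references, the highest ovary value, and with 15.3% for the genes lower than both, the lowest ovary value. Ovary replicate 4 also had the largest total of the ovary libraries, 56763398 counts. The part of depth in these shares was not tested.

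Some named genes were higher in every adult testis library than in every adult ovary library but lower in the juvenile testis than in the juvenile ovary. For 4 of them the juvenile difference was 2-fold or more, while for LOC121423851 the log2 ratio was only -0.41. For the 4 genes the log2 ratio was -1.89 for LOC121407248, -1.71 for LOC121410855, -4.29 for LOC121411316 and -1.22 for LOC121423374. The difference between the adult and juvenile contrasts was not tested, since the juveniles had 1 library of each sex, and the juvenile libraries differ from the adult ones in age and provider at once.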

How the results depend on the processing

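Library totals in place of TMM moved the comparison with eggs most, to 3311 genes higher and 440 lower in testis (88.3% higher, against 39.7% with TMM and a median of 0.88 on the log2 scale), and gave 2275 shared higher, 46 between ovary and eggs, 247 shared lower, 13 lower than ovary but higher than eggs, and 173 unplaced lower genes. The DESeq2 Wald test called 8768 genes higher in testis than in ovary and 1521 higher and 1490 lower than in eggs (50.5% higher), with 1270 shared higher, 256 between, 817 shared lower and 2 lower than ovary but higher than eggs. Without testis replicate 3, 54.5% of the calls against eggs were higher. One fit over 12 libraries gave 5466 genes higher only against the ovary and 69 between. Of the main classes, 350 shared higher, 399 shared lower, 3470 higher and 2870 lower only against the ovary and 60 between were in the same class there. With glmTreat against a fold of 2 there were 278 genes higher and 357 lower than in eggs, 2171 lower in eggs than in ovary, 262 shared higher, 25 between, 214 shared lower, 1848 lower only against the ovary and 1104 unplaced lower. The stricter rule for genes seen only against the ovary left 1423 lower genes unplaced. The cause of these shifts was not tested.

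Leaving out single libraries gave 4948 to 6895 genes higher and 3640 to 4658 lower in testis than in ovary. Against eggs the ranges were 312 to 567 higher (fewest without egg replicates 4, 3 and 1 and testis replicate 2) and 342 to 678 lower (fewest without testis replicate 2, then 3, at 474). Eggs against ovary gave 3945 to 5436 higher and 2494 to 3700 lower (fewest without egg replicate 2). Shared higher genes ranged from 293 to 466 (293 and 294 without egg replicates 3 and 4), shared lower from 209 to 444 (209, 272 and 271 without testis replicates 2 and 3 and egg replicate 3), and genes between ovary and eggs from 33 to 144 (33, 67 and 64 without testis replicates 2, 3 and 4, and 77 to 93 without any 1 egg replicate). Genes seen only against the ovary ranged from 3106 to 4250 higher and from 2141 to 3166 lower, and unplaced genes from 1275 to 2215 higher and from 510 to 1581 lower (1152 to 1581 without ovary replicates 1, 2 or 3 or egg replicates 1, 2 or 4). No gene was lower than ovary but higher than eggs with any library left out.

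With the replicate number as a block, 5611 genes were higher and 3762 lower in testis than in ovary, 405 and 523 against eggs, 41 lay between ovary and eggs and 399 lower genes were unplaced. Deviations of equal-numbered libraries correlated across 16549 genes at -0.063 to 0.038 for testis and ovary and -0.045 to 0.074 for testis and eggs. For eggs and ovary they were 0.347, 0.264, 0.324 and 0.093, each the highest for its number, which is a hint from the data and not the design, so the numbers were not taken as pairs. The named genes were not examined under glmTreat. Of 392 values of named genes under the other alternatives, 375 kept their direction and their side of the threshold. The call was lost for 13 and gained for 4, all 17 in testis against eggs, and none reversed. One of those gained was LOC121408450, at 1.94 with library totals alone. Of the unplaced genes, 771 of 1642 higher and 1 of 709 lower were not tested between eggs and ovary.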

Other observations

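The longest run of genes higher in testis than in both references was LOC121423454, LOC121424190 and LOC121424191, chosen after their values were seen. LOC121423454 averaged 20.9 CPM in testis, against 0.601 CPM in ovary and 1.05 CPM in eggs. LOC121424190 averaged 11.3 CPM in testis, against 0.272 CPM in ovary and 0.459 CPM in eggs, and LOC121424191 averaged 10.3 CPM in testis, against 0.309 CPM in ovary and 0.309 CPM in eggs. The juvenile testis lay above the juvenile ovary for all 3, with 8.57 against 0.985 CPM, 5.47 against 0.328 CPM and 6.90 against 0.394 CPM. On the lower side the longest run of shared genes was LOC121415982, LOC121415984 and LOC121415987, at 0.445, 0.119 and 0.202 CPM in testis, against 15.0, 5.73 and 7.40 CPM in ovary and 6.58, 6.23 and 4.25 CPM in eggs. LOC121410855, named above, lay beside LOC121410856, which averaged 2.21 CPM in testis, against 0.0232 CPM in ovary and 42.5 CPM in eggs. Whether such neighbours are copies that share reads was not tested.

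The mitochondrial ribosomal RNA rows were lower in testis than in ovary. DR311_mgr01 averaged 3988 ± 1228 CPM in testis, against 14454 ± 3366 CPM in ovary and 6884 ± 2882 CPM in eggs (SD, n = 4 each), a log2 fold change of -1.76 against ovary (edgeR adjusted p = 0.00223). DR311_mgr02 averaged 953 ± 502 CPM in testis, against 4884 ± 1293 CPM in ovary and 1137 ± 493 CPM in eggs (SD, n = 4 each), with -2.27 against ovary (edgeR adjusted p = 0.00178). These rows were also chosen after their values were seen.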
